A study of Mus musculus with 12 samples.

Results

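The genes described here are 38 mouse genes that protect, extend or recombine chromosome ends: the shelterin proteins, the parts of telomerase, the CST complex and the tankyrases, ATRX and DAXX, the RecQ helicases, the MRN complex, and genes of homologous recombination in somatic and meiotic cells. They were taken by symbol from the 22619 gene symbols measured in every library, and all 38 were present. Their levels were given as FPKM (fragments scaled by transcript length and by the mapped fragments of the library). The 12 libraries were made with Smart-seq2, a method that copies polyadenylated RNA from very small inputs. Wild-type C57BL/6 embryos formed the control embryo group (n = 2), and Dcaf11 knockout C57BL/6 embryos formed the KO embryo group (n = 3) and a further group titled KO arrest (n = 3). Wild-type 129Sv embryonic stem cells formed the control ESC group (n = 2), and 129Sv stem cells with Dcaf11 knocked down formed the KD ESC group (n = 2). The labels gave no embryonic stage, no number of embryos in a library and no knockdown reagent. They also did not tie the replicates of a group to different embryos or cultures; the tests below therefore rest on the spread between libraries, which may be technical.

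Shelterin coats the telomere repeats: Terf1 and Terf2 bind the double-stranded repeat, Pot1a and Pot1b bind the single-stranded end, and Tinf2, Acd and Terf2ip join them together. Telomerase adds repeats with the reverse transcriptase Tert and the template RNA Terc, held by the H/ACA proteins Dkc1, Nop10, Nhp2 and Gar1, which Naf1 helps to assemble. Telomeres can also lengthen by recombination between chromosome ends, a route that has been described in mouse cleavage-stage embryos and in stem cells expressing Zscan4.

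The promoters of Nhp2, Nop10 and Terf2 are shown first, because Nhp2 was called against control embryos in both knockout groups under all 21 alternatives run, Nop10 encodes its partner in the H/ACA complex, and Terf2 separated the KO arrest libraries from the other embryo libraries. The sequences are from RefSeq on build GRCm38.p6 and run 5′ to 3′ on the gene's strand, from 250 to 51 bases before the annotated start, and capitals mark the letters CCAAT on either strand.
Nhp2, chr11:51619523-51619722, plus strand: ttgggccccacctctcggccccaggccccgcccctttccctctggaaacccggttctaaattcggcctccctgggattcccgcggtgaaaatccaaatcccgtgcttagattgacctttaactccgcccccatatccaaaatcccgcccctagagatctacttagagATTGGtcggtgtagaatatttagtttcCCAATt
Nop10, chr2:112261676-112261875, plus strand: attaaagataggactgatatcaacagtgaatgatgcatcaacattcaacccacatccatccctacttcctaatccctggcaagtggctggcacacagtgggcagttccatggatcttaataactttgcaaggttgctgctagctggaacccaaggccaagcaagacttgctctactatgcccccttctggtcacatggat
Terf2, chr8:107096596-107096795, minus strand: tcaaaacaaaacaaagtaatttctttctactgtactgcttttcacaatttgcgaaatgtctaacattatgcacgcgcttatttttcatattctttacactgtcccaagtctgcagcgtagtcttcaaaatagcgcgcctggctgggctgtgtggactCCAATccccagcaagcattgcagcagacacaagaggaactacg
The Nhp2 window held the letters at 83 and 56 bases before the start and the Terf2 window at 93, while the Nop10 window held none. Of the 38 members, 29 had a promoter in the table, and 13 of these 29 (44.8%) held CCAAT in the 200-base window, against 28.9% of 27025 promoters. The E-box CACGTG was in 2 of the 29 windows (4.35% of all promoters), the ETS motif CCGGAAG in 1 (4.01%), and TATAAA in 2 (9.48%). A match is a run of letters and was not tested as a binding site.

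Depth and library makeup differed between the groups. The authors' coverage per unit of FPKM, which scales with sequencing depth, ran from 0.373 in KO arrest 1 to 2.01 in control embryo 1. The FPKM of a library summed to 340934 and 396336 in control embryos, 361475 to 395629 in KO embryo and 485201 to 560698 in KO arrest. In stem cells these sums ran from 352754 to 370662. Counts for KO arrest with the authors' TPM are given below. Control embryo 1 had 6573 genes at 1 FPKM or more, against 8535 to 12061 in the other 11 libraries, and 19 of the 38 members reached 1 FPKM there, against 30 to 37 elsewhere. Its log2 values correlated at r = 0.812 across genes with control embryo 2, below the 0.915 to 0.981 of the other replicate pairs. The calls of members against control embryos are therefore also given without it. Dcaf11 itself was at 2.82 and 14.3 FPKM in control embryos, 0.184 to 3.99 in KO embryo and 0.422 to 6.02 in KO arrest, so these groups overlapped, and the labels do not say which part of the gene was removed. It was at 6.48 and 4.52 FPKM in control ESC and at 1.69 and 1.83 in KD ESC.

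Other transcripts moved with the same groups. The 6 Zscan4 genes together were at 374 and 990 FPKM in control embryos, 47.2 to 87.3 in KO embryo, 5.41 to 17.8 in KO arrest, 44.0 and 54.2 in control ESC, and 4.84 and 5.28 in KD ESC. The 16 oocyte genes summed to 24159 and 39669 FPKM in control embryos, 8450 to 12314 in KO embryo and 682 to 1062 in KO arrest, and 17 cytosolic ribosomal protein genes to 431 and 435, 1590 to 2068, and 4771 to 7721. The 6 blood-cell markers summed to 69.0 and 143 FPKM in control embryos and to 238 to 362 in KO embryo, with Hba-a1 at 0 in both, and all 6 were at 0 in KO arrest and in both stem cell groups. The 7 fibroblast markers summed to 17.1 and 67.2 FPKM in control embryos, 59.2 to 92.9 in KO embryo and 0.0513 to 2.90 in KO arrest. They were not confined to embryo libraries, with sums of 73.7 and 74.5 FPKM in control ESC and 52.0 and 46.0 in KD ESC. Of 9 pluripotency markers, all 9 were at 1 FPKM or more in every stem cell library, and 5 of 9 were in both control embryo libraries, with Tdgf1 at 0. They summed to 671 and 733 FPKM in control embryos, 1699 to 3024 in KO embryo and 1390 to 1986 in KO arrest. In stem cells the sums were 3161 and 3223 FPKM in control ESC and 2389 and 2684 in KD ESC. Against control embryo, 3 of the 9 had a log2 change above 0 in KO embryo (median -0.62), so most did not share the rise of the sum. By the test described below, 1 was called higher and 0 lower, against 4.86% and 1.5% of all genes. In KO arrest 6 of the 9 had a log2 change above 0 (median 0.74). Of the 9, 3 were called higher and 2 lower there, against 16.4% and 8.87% of all genes. The 8 cumulus and granulosa markers summed to 16.0 and 17.1 FPKM in control embryos (Ptgs2, Amh and Fshr at 0), 1.49 to 5.95 in KO embryo and 0 to 2.82 in KO arrest. Their sums were higher in stem cells, at 28.7 and 31.8 FPKM in control ESC and 20.2 and 21.2 in KD ESC. The part of these differences in the results below was not tested. In such libraries fewer cells of a type and less RNA per cell cannot be told apart.

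**Figure D1:**
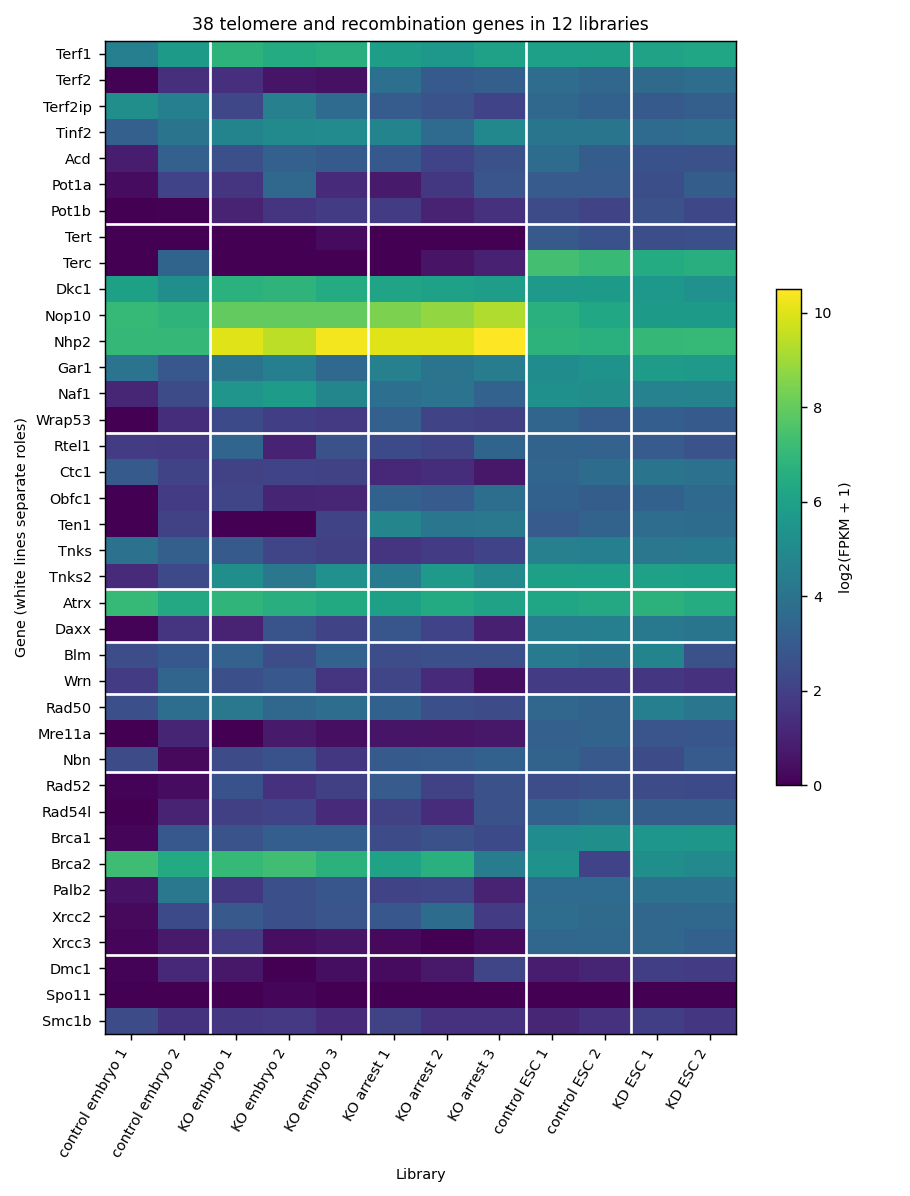
Log2(FPKM + 1) of the 38 members (down, grouped by role) in the 12 libraries (across, grouped by condition). Nhp2 is brightest, at 697 to 1451 FPKM in the 6 knockout embryo libraries, and Tert and Terc are dark in embryo libraries and lighter in the 4 stem cell libraries.

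A gene was called when limma's adjusted p, over all genes tested, was under 0.05, and fold changes are on the log2(FPKM + 1) scale. In KO embryo against control embryo, 3 of the 33 members tested were called, all higher (Nhp2, Naf1 and Tnks2), against 6.36% of 11795 genes in either direction, 4.86% higher and 1.5% lower. In KO arrest against control embryo, 9 of 33 were called, 8 higher (Nhp2, Nop10, Naf1, Tnks2, Ten1, Obfc1, Terf2 and Rad52) and 1 lower (Terf2ip), against 25.2% of genes, 16.4% higher and 8.87% lower, so this share was near the background. In KO arrest against KO embryo, 2 of 33 were called higher (Ten1 and Terf2), against 8.58% of genes, 4.93% higher and 3.65% lower. In KD ESC against control ESC, 1 of 37 was called (Naf1, lower), against 6.23% of 12264 genes, 2.59% higher and 3.64% lower. In control embryo against control ESC, 19 of 37 were called, 18 of them lower in the embryo, against 53.4% of 14447 genes, 12.6% higher and 40.8% lower, which is again near the background. In the same order, the groups did not overlap for 14 of 33 members (36.3% of all genes tested), 17 of 33 (48.8%), 12 of 33 (37.1%), 28 of 37 (62.5%) and 30 of 37 (74.4%). The median log2 fold change of the members beside that of all genes was 0.88 and 0.31 in KO embryo, 0.82 and 0.45 in KO arrest, -0.03 and 0.07 between the knockout groups, -0.18 and -0.09 in KD ESC, and -1.77 and -1.01 between control embryo and control ESC. Tert, Terc, Mre11a, Xrcc3 and Spo11 did not reach 1 FPKM in 2 embryo libraries and had no test among embryos. The 2 comparisons with control embryos share the same 2 control libraries.

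Single libraries decided several of these calls. In KO embryo, Nhp2 and Naf1 remained without control embryo 1, and Nhp2 alone without KO embryo 1. In KO arrest against control embryo, Nhp2, Nop10 and Tnks2 remained without control embryo 1, where Nbn was also called (2.82, adjusted p = 0.0218), and the same 3 remained without KO arrest 1. Between the knockout groups, neither Ten1 nor Terf2 was called without KO embryo 1, without KO embryo 2 or without any 1 of the KO arrest libraries.

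**Figure D2:**
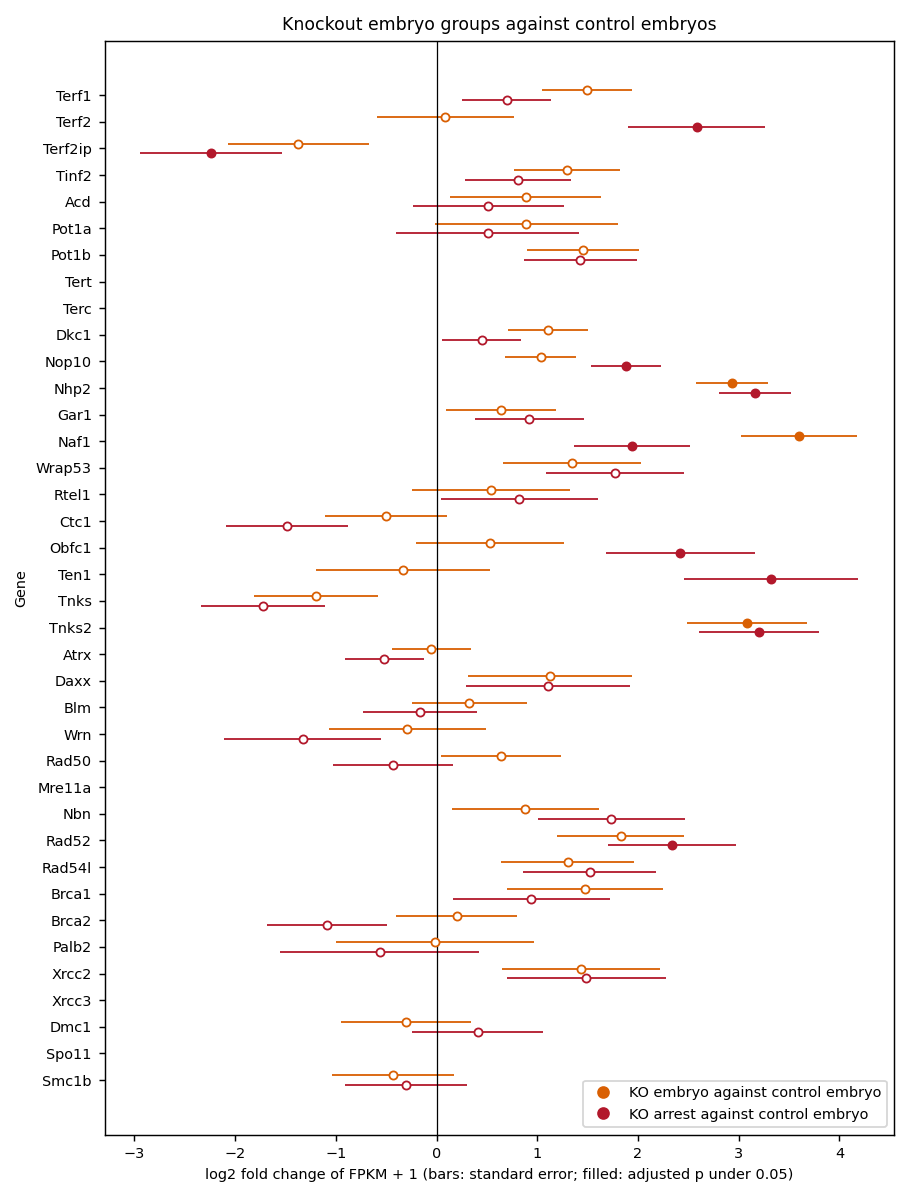
Log2 fold change of FPKM + 1 (points, with standard errors as bars) of each member in KO embryo (orange) and KO arrest (red) against control embryo, filled where the adjusted p was under 0.05. Nhp2, Naf1 and Tnks2 are filled in both, Nop10, Ten1, Obfc1, Terf2, Rad52 and Terf2ip are filled in KO arrest alone, and the genes with no point were not tested.

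Nhp2, an H/ACA protein of telomerase that binds the RNA fold, rose in both knockout embryo groups and was the member with the highest level in each of their 6 libraries. Nhp2 (mm9 chr11:51433275-51437216) was at 126 and 127 FPKM in control embryos, at 1024, 697 and 1286 in KO embryo, and at 1008, 1022 and 1451 in KO arrest. Every knockout embryo library lay above both controls, and the knockout groups overlapped each other. Its mean was 7.92-fold higher in KO embryo (1003 ± 295 SD, n = 3, against 127 ± 0.403, n = 2) and 9.16-fold higher in KO arrest (1160 ± 252, n = 3). The log2 changes were 2.93 ± 0.36 (SE, adjusted p = 0.00392) and 3.16 ± 0.36 (adjusted p = 0.000379), and both calls held under all 21 alternatives, with log2 changes from 2.24 to 3.17 and from 2.27 to 3.25. In stem cells Nhp2 was at 111 and 102 FPKM in control and 126 and 131 in KD ESC (log2 change 0.27 ± 0.08, adjusted p = 0.116). Nhp2 overlaps Rmnd5b on the opposite strand, and the sources used here do not say whether the counting used strand. Rmnd5b was at 1.69 and 7.71 FPKM in control embryos, 21.1 to 29.2 in KO embryo and 17.96 to 41.5 in KO arrest.

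Nop10, the small H/ACA protein that contacts Dkc1, followed a graded order across the embryo groups (mm9 chr2:112102126-112103055). It was at 131 and 114 FPKM in control embryos, 248, 255 and 248 in KO embryo, and 343, 440 and 606 in KO arrest. The 3 groups did not overlap, although only KO arrest against control embryo was called (1.88 ± 0.35, adjusted p = 0.00387), the KO embryo change being 1.03 ± 0.35 (adjusted p = 0.105) and the change between the knockout groups 0.84 ± 0.31 (adjusted p = 0.118). The KO arrest call was lost with median-of-ratios scaling (log2 change 1.00). In stem cells Nop10 was at 101 and 76.7 FPKM in control and 51.1 and 51.2 in KD ESC (-0.77 ± 0.15, adjusted p = 0.0606).

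Dkc1, the pseudouridine synthase at the core of the same complex, did not pass the test in any knockout comparison. It was at 61.3 and 35.1 FPKM in control embryos, 104, 114 and 87.2 in KO embryo, and 70.1, 63.7 and 57.8 in KO arrest (log2 changes 1.11 and 0.45, adjusted p = 0.122 and 0.432). Within a library, Nhp2 over Dkc1 was 2.06 and 3.62 in control embryos, 6.09 to 14.7 in KO embryo, 14.4 to 25.1 in KO arrest, 1.94 and 2.29 in control ESC, and 2.64 and 3.41 in KD ESC. The ratio therefore lay higher in all 6 knockout embryo libraries than in the other 6, and it does not depend on how the libraries were scaled. Gar1, the fourth H/ACA protein, was at 15.1 and 6.15 FPKM in control embryos and 11.2 to 22.7 in the knockout libraries, and neither change was called. Nhp2 and Nop10 are short, with longest transcripts of 1042 and 1109 bases, whereas that of Dkc1 has 2804. With the trend of log2 values on transcript length removed within each library, 3 members were called in KO embryo and 9 in KO arrest. The part of transcript length in these changes was not tested.

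Naf1, the assembly factor that Gar1 replaces in the mature particle, had the largest fold change among the members called in KO embryo (mm9 chr8:69384116-69414463). It was at 1.18 and 4.40 FPKM in control embryos, 43.5, 55.0 and 27.5 in KO embryo, and 13.5, 14.9 and 8.89 in KO arrest. No library of one group lay within the range of another. The log2 change was 3.59 ± 0.58 in KO embryo (adjusted p = 0.0108, 19 of 21 alternatives) and 1.94 ± 0.58 in KO arrest (adjusted p = 0.0321, 11 of 21 alternatives). KO arrest was lower than KO embryo by a difference that did not pass (-1.65 ± 0.52, adjusted p = 0.0735). In stem cells Naf1 went the other way, from 37.3 and 35.2 FPKM in control to 24.2 and 24.6 in KD ESC (-0.55 ± 0.09, adjusted p = 0.0485), a call lost under 12 of 16 alternatives, including all 4 that left out 1 stem cell library.

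Tert, the telomerase reverse transcriptase, was listed at 0 in 7 of the 8 embryo libraries and at 0.229 FPKM in KO embryo 3. In stem cells it was at 6.71 and 5.27 FPKM in control and 4.80 and 4.96 in KD ESC (-0.24 ± 0.17, adjusted p = 0.39). Terc, the template RNA, which does not normally end in a long poly(A) tail, was at 0 and 9.38 FPKM in control embryos, 0 in all 3 KO embryo libraries, and 0, 0.486 and 0.940 in KO arrest. It stood at 165 and 136 FPKM in control ESC and 87.8 and 96.7 in KD ESC, so the stem cell groups did not overlap, and the change of -0.69 ± 0.12 narrowly missed the threshold (adjusted p = 0.0534). Both genes differed between control embryo and control ESC (adjusted p = 1.56e-05 for Tert and 0.000439 for Terc), with no fold given for Tert because the embryo values were listed at 0. Wrap53, which carries telomerase to Cajal bodies, was at 0 and 1.57 FPKM in control embryos, 4.13, 2.88 and 2.41 in KO embryo, and 8.25, 3.43 and 3.00 in KO arrest. It lay above both controls in all 6 knockout libraries without being called (in KO arrest 1.77 ± 0.69, adjusted p = 0.0833).

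**Figure D3:**
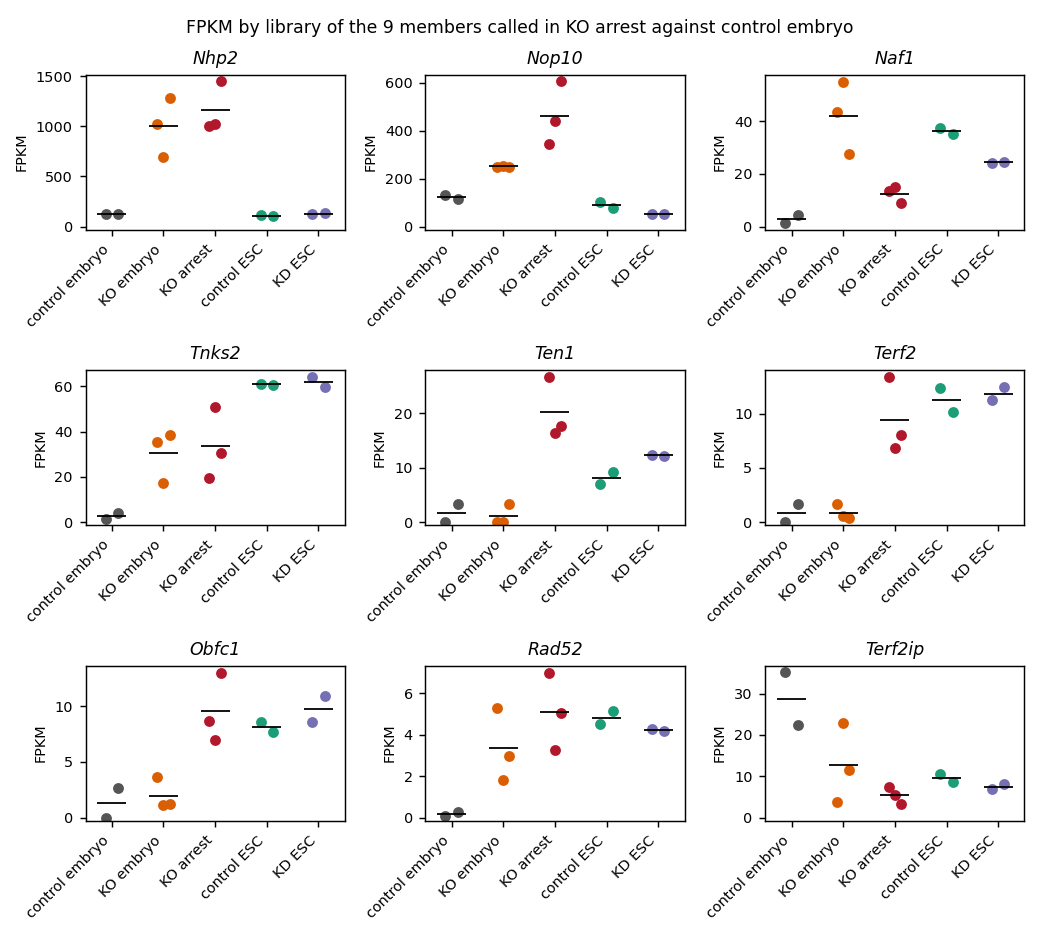
FPKM of each library (points, linear axes) with the group mean (line) for the 9 members called in KO arrest against control embryo. Nhp2 and Tnks2 are raised in both knockout embryo groups, and Terf2, Ten1 and Obfc1 are raised in KO arrest and near the control level in KO embryo.

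Among the shelterin genes, KO arrest differed from the other embryo groups in Terf2, which folds and protects the telomere end (mm9 chr8:109593302-109620445). Terf2 was at 0.0504 and 1.67 FPKM in control embryos and 1.71, 0.517 and 0.373 in KO embryo, and at 13.3, 6.81 and 7.98 in KO arrest. All 3 KO arrest libraries lay above the 5 others. The change was 2.58 ± 0.68 against control embryo (adjusted p = 0.0192, 16 of 21 alternatives) and 2.49 ± 0.61 against KO embryo (adjusted p = 0.0308, 11 of 21 alternatives). The KO embryo change was 0.09 ± 0.68 (adjusted p = 0.961). Stem cells were at 12.4 and 10.1 FPKM in control and 11.2 and 12.5 in KD ESC, near the KO arrest level.

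Terf2ip, which encodes the Terf2-binding protein RAP1, went down in the same comparison. It was at 35.2 and 22.4 FPKM in control embryos, 3.74, 22.9 and 11.6 in KO embryo, and 7.34, 5.52 and 3.33 in KO arrest. KO arrest lay below both controls (-2.24 ± 0.70, adjusted p = 0.04, 12 of 21 alternatives), whereas KO embryo overlapped them (-1.37 ± 0.70, adjusted p = 0.281).

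Terf1, the other duplex-binding shelterin protein, was at 21.9 and 52.6 FPKM in control embryos, 111, 86.4 and 97.6 in KO embryo, and 56.9, 48.0 and 63.2 in KO arrest. KO embryo lay above both controls and all of KO arrest, but its change of 1.495 ± 0.44 missed the threshold (adjusted p = 0.0732). Tinf2, the central bridge, was at 8.21 and 15.5 FPKM in control embryos, 25.5, 30.5 and 32.2 in KO embryo, and 25.4, 11.8 and 28.8 in KO arrest (1.30 ± 0.53, adjusted p = 0.173 in KO embryo, and 0.81 ± 0.53, adjusted p = 0.285 in KO arrest). Acd, Pot1a and Pot1b were at 0 to 10.3 FPKM in embryo libraries and were not called. Pot1b was at 0 and 0.0503 FPKM in control embryos and at 1.01 to 2.69 in the 6 knockout embryo libraries. In stem cells no shelterin gene was called, and Terf1 was at 60.7 and 61.9 FPKM in control and 65.8 and 70.6 in KD ESC. Tinf2 was at 15.8 and 16.1 FPKM in control ESC and 11.9 and 13.0 in KD ESC.

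The tankyrases, poly(ADP-ribose) polymerases first described through human TRF1, had fold changes of opposite sign in the knockout embryos, and Tnks2 alone was called. Tnks2 (mm9 chr19:36908722-36967967) was at 1.48 and 3.95 FPKM in control embryos, 35.6, 17.1 and 38.5 in KO embryo, and 19.6, 50.9 and 30.5 in KO arrest. Every knockout library was above both controls, by 11.2-fold in the mean of KO embryo and 12.4-fold in that of KO arrest. The log2 changes were 3.08 ± 0.60 (adjusted p = 0.0188, 15 of 21 alternatives) and 3.20 ± 0.60 (adjusted p = 0.00395, all 21 alternatives). Tnks was at 14.8 and 8.13 FPKM in control embryos, 6.83, 3.58 and 2.99 in KO embryo, and 2.10, 2.52 and 3.37 in KO arrest, below both controls in all 6 but not called (adjusted p = 0.281 and 0.0627). Within a library, Tnks2 over Tnks was 0.1004 and 0.486 in control embryos, 4.78 to 12.9 in KO embryo, 9.06 to 20.2 in KO arrest, 2.70 and 2.73 in control ESC, and 3.33 and 3.81 in KD ESC.

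Of the CST complex, which refills the strand that telomerase does not make, the 2 smaller subunits rose in KO arrest. Ten1 (mm9 chr11:116060169-116076632) was at 0 and 3.26 FPKM in control embryos, 0, 0 and 3.39 in KO embryo, and 26.6, 16.3 and 17.5 in KO arrest. KO arrest stood above all other embryo libraries. The Ten1 change was 3.33 ± 0.86 against control embryo (adjusted p = 0.0183, 14 of 21 alternatives). Against KO embryo it was 3.66 ± 0.77 (adjusted p = 0.0195, 13 of 21 alternatives). Over the alternatives these changes ran from 2.28 to 5.09 and from 3.30 to 5.92. Obfc1, the middle subunit (also called Stn1), was at 0 and 2.66 FPKM in control embryos, 3.62, 1.10 and 1.18 in KO embryo, and 8.65, 6.98 and 13.0 in KO arrest. Its change was 2.42 ± 0.74 against control embryo (adjusted p = 0.0358, 10 of 21 alternatives) and 1.89 ± 0.66 against KO embryo (adjusted p = 0.103). Ctc1, the large subunit, was at 6.91 and 3.47 FPKM in control embryos, 3.09 to 3.36 in KO embryo and 0.590 to 1.59 in KO arrest, and was not called (-1.49 ± 0.60, adjusted p = 0.0962 in KO arrest). Rtel1, a helicase that unwinds telomere loops, was at 1.04 to 9.65 FPKM in embryo libraries and was not called.

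Atrx and Daxx deposit histone H3.3 at telomeres, and neither was called in a knockout or knockdown comparison. Atrx was at 129 and 79.5 FPKM in control embryos, 116, 98.0 and 81.8 in KO embryo, 61.8, 85.2 and 66.2 in KO arrest, 71.8 and 79.8 in control ESC, and 107 and 90.6 in KD ESC. Its log2 changes were -0.05 ± 0.39, -0.52 ± 0.39 and, in stem cells, 0.38 ± 0.12 (adjusted p = 0.959, 0.355 and 0.126). Daxx was at 0.0712 and 1.98 FPKM in control embryos, 1.00, 5.66 and 3.47 in KO embryo, and 6.00, 3.28 and 0.903 in KO arrest, with overlap between the groups (1.13 ± 0.81 and 1.11 ± 0.81, adjusted p = 0.454 and 0.343). In stem cells Daxx was at 21.7 and 22.2 FPKM in control and 18.2 and 16.0 in KD ESC (-0.35 ± 0.11, adjusted p = 0.133). The RecQ helicases Blm and Wrn were at 0.357 to 9.72 FPKM in embryo libraries and were not called.

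Among the recombination genes, Rad52, which anneals single strands and acts in break-induced copying, was the member called. It was at 0.0828 and 0.260 FPKM in control embryos, 5.30, 1.84 and 2.98 in KO embryo, and 6.99, 3.25 and 5.07 in KO arrest, so all 6 knockout libraries were above both controls. The change was 2.34 ± 0.63 in KO arrest (adjusted p = 0.022, 15 of 21 alternatives) and 1.83 ± 0.63 in KO embryo (adjusted p = 0.113). Stem cells stood at 4.52 and 5.14 FPKM in control and 4.29 and 4.19 in KD ESC.

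Brca1 and Brca2, which act in the repair of breaks by homologous recombination, were not called in a knockout comparison. Brca1 was at 0.130 and 6.34 FPKM in control embryos, 5.49, 7.87 and 7.90 in KO embryo, and 4.43, 5.14 and 4.07 in KO arrest (1.47 ± 0.78 and 0.94 ± 0.78, adjusted p = 0.294 and 0.402). Brca2 was at 151 and 83.7 FPKM in control embryos, 132, 154 and 107 in KO embryo, and 65.9, 101 and 21.1 in KO arrest. KO arrest lay below KO embryo in all 3 libraries without being called (-1.29 ± 0.54, adjusted p = 0.157). Rad54l, Palb2, Xrcc2 and Xrcc3 were at 0 to 17.7 FPKM in embryo libraries. Rad54l, Palb2 and Xrcc2 were not called among embryos, and Xrcc3 was not tested there.

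Of the MRN complex, which senses and trims broken ends, Rad50 and Nbn were tested among embryos and were not called in the main test. Rad50 was at 4.84 and 12.9 FPKM in control embryos, 17.3, 10.3 and 12.4 in KO embryo, and 8.52, 4.93 and 4.29 in KO arrest (0.64 ± 0.60 and -0.43 ± 0.60, adjusted p = 0.58 and 0.627). Nbn was at 4.47 and 0.213 FPKM in control embryos, 4.30, 5.25 and 2.23 in KO embryo, and 6.97, 7.28 and 8.58 in KO arrest. KO arrest lay above all other embryo libraries, though its change against control embryo did not pass (1.74 ± 0.73, adjusted p = 0.108). Mre11a was at 0 to 1.12 FPKM in embryo libraries and was not tested among them.

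Meiotic members were low throughout. Spo11, the meiotic break enzyme, was listed at 0 in 11 of 12 libraries and at 0.133 FPKM in KO embryo 2. Dmc1, the meiotic strand-exchange protein, was at 0.0680 and 1.32 FPKM in control embryos, 0.588, 0 and 0.302 in KO embryo, 0.232, 0.626 and 3.55 in KO arrest, 0.765 and 1.12 in control ESC, and 2.89 and 2.60 in KD ESC. Its stem cell groups did not overlap, and the change of 0.95 ± 0.20 missed the threshold (adjusted p = 0.0674). Smc1b, a meiotic cohesin, was at 4.31 and 1.88 FPKM in control embryos, 2.13, 2.31 and 1.36 in KO embryo, 3.07, 1.80 and 1.81 in KO arrest, 1.20 and 1.79 in control ESC, and 2.86 and 2.19 in KD ESC. It was not called in any comparison, with log2 changes of -0.43 ± 0.61 in KO embryo, -0.30 ± 0.61 in KO arrest and 0.50 ± 0.23 in KD ESC (adjusted p = 0.725, 0.741 and 0.224).

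In KD ESC against control ESC, log2 changes of the members lay between -0.77 (Nop10 and Acd) and 1.37 (Brca2), and 16 of 37 were above 0. Brca2 was at 39.7 and 3.33 FPKM in control ESC and at 36.4 and 30.4 in KD ESC, so its change (1.37 ± 1.10, adjusted p = 0.451) rested on control ESC 2, and without that library it was -0.25. Rad50 was at 10.2 and 9.23 FPKM in control and 22.2 and 16.6 in KD ESC (0.91 ± 0.18, adjusted p = 0.059), and Brca1 at 33.8 and 36.4 against 44.6 and 46.4 (0.37 ± 0.09, adjusted p = 0.0835). Both pairs of groups were separate. 

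**Figure D4:**
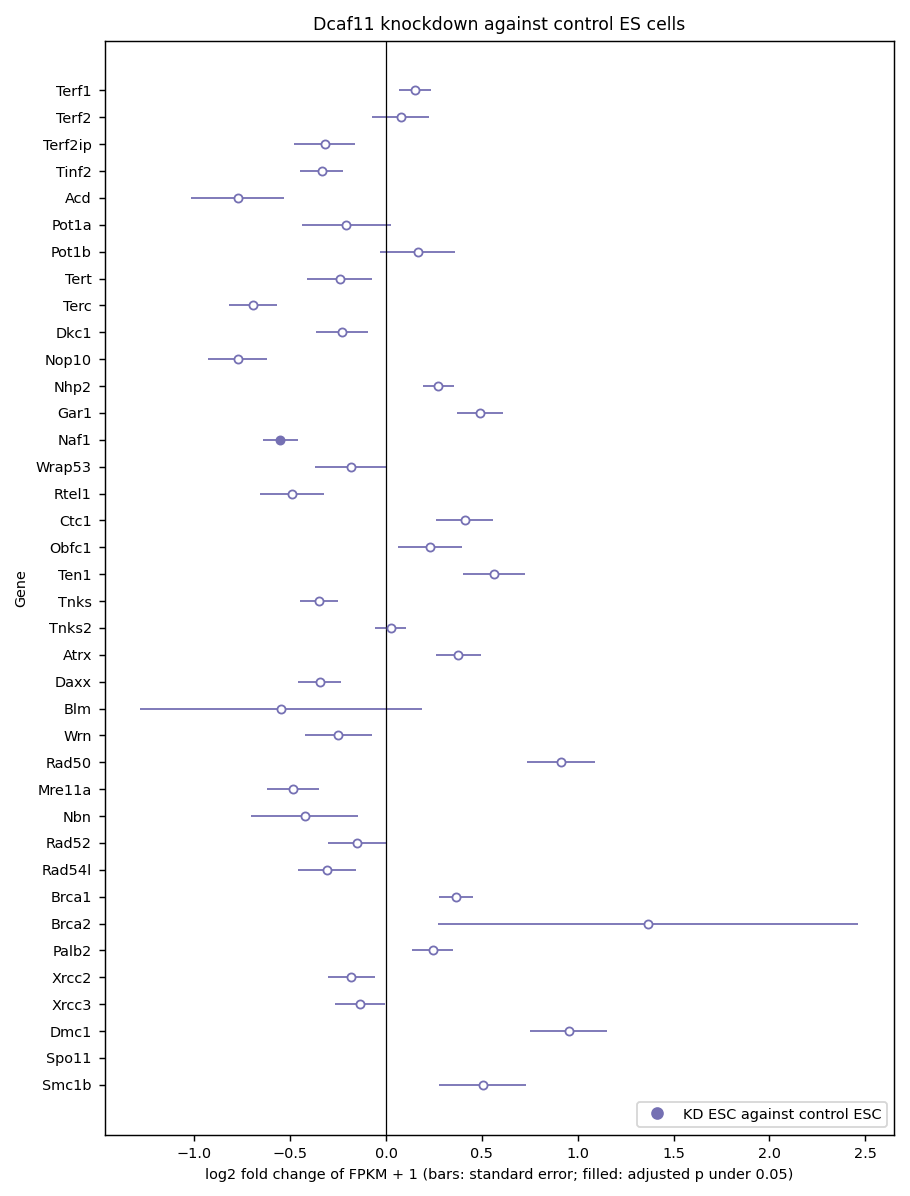
Log2 fold change of FPKM + 1 (points, with standard errors as bars) of each member in KD ESC against control ESC, filled where the adjusted p was under 0.05. Naf1 alone is filled, at -0.55, and the long bar at Brca2 reflects control ESC 2, at 3.33 FPKM.

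The effects in embryos and stem cells were set against each other in a fit of all 12 libraries, as the KO embryo change minus the KD ESC change. Of 37 members, 3 differed, against 2.69% of 14447 genes: Naf1 by 4.15 ± 0.66 (adjusted p = 0.0125), Nhp2 by 2.66 ± 0.40 (adjusted p = 0.00972) and Nop10 by 1.81 ± 0.38 (adjusted p = 0.0413), each with the higher change in the embryo. With median-of-ratios scaling Naf1 alone remained, and without either control ESC library, or without KD ESC 1, no member did. Strain, material and the way Dcaf11 was lost differ between the embryo and stem cell groups and cannot be told apart.

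Wild-type embryos and wild-type stem cells differed in about as large a share of the members as of all genes. The 18 members lower in control embryo spanned all roles but the RecQ helicases and meiotic genes, and included Tnks2 (-4.14 ± 0.53, adjusted p = 0.00015), Naf1 (-3.44 ± 0.49, adjusted p = 0.000264), Brca1 (-3.65 ± 0.69, adjusted p = 0.0015), Daxx (-3.68 ± 0.74, adjusted p = 0.00218) and Terf2 (-2.86 ± 0.54, adjusted p = 0.00154). Mre11a was at 0 and 1.12 FPKM in control embryos and 8.21 and 9.28 in control ESC, and Xrcc3 at 0.145 and 0.708 against 10.2 and 10.4. Pot1b, Rad54l, Rad52, Wrap53, Obfc1, Xrcc2, Gar1, Nbn and Ten1 were also lower, and with Tert and Terc they complete the 18. The Nbn call was lost under 17 of 24 alternatives and the Ten1 call under 18, most omissions of 1 library among them, and the Obfc1 and Xrcc2 calls were lost without control embryo 1 or without either control ESC library. Brca2 was the 1 member higher in control embryo (3.09 ± 0.95, adjusted p = 0.0195), a call lost without control embryo 1 or without control ESC 2. Nhp2, Nop10, Dkc1, Atrx and Terf1 were not called, and Nhp2 was at 126 and 127 FPKM against 111 and 102. With median-of-ratios scaling the split of called members became 7 higher and 14 lower, and with quantile normalization 4 and 13. Over all 8 embryo and 4 stem cell libraries, 12 of 37 members were higher in every stem cell library than in any embryo library, against 31.8% of genes, and 1, Nop10, was lower, against 7.84%. The first share is near the background.

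**Figure D5:**
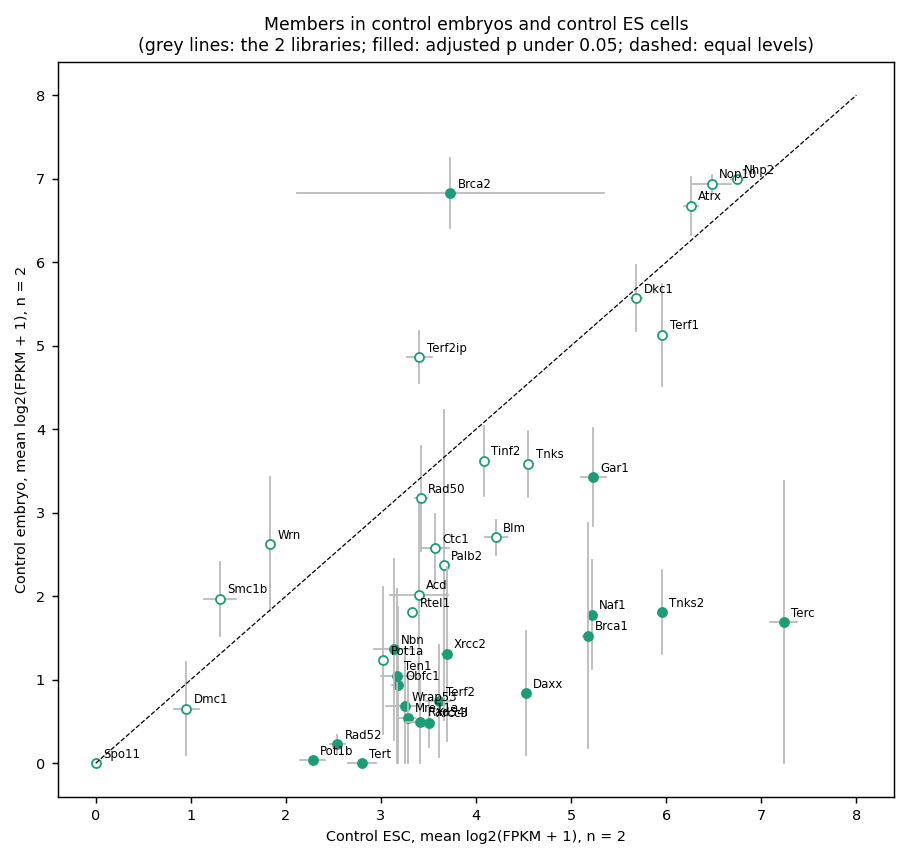
Mean log2(FPKM + 1) of each member in control embryo (vertical) and control ESC (horizontal), n = 2 each, with grey lines joining the 2 libraries and filled points where the adjusted p was under 0.05. Most members lie below the dashed line of equal levels, Nhp2, Nop10, Atrx and Dkc1 lie near it, and Brca2 lies above it with a wide span in stem cells.

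Other genes of these pathways were taken from 3 further lists of 79 measured genes. Their calls are from the main test alone and are not given without control embryo 1 or under the other alternatives. In KO embryo, 5 of 73 tested rose and 1 fell, and in KO arrest 10 rose and 6 fell, shares of 8.22% and 21.9%, near the 6.36% and 25.2% of all genes. Gnl3, a nucleolar GTPase that binds Terf1, was at 12.1 and 15.8 FPKM in control embryos and 70.1 to 99.7 in all 6 knockout libraries, rising by 2.40 ± 0.39 and 2.46 ± 0.39 (adjusted p = 0.0108 and 0.00178). Rpa2, of the single-strand binding complex RPA, was at 1.01 and 11.9 FPKM in control embryos and 44.0 to 71.6 in the knockout libraries (3.29 ± 0.68 and 3.58 ± 0.68, adjusted p = 0.0233 and 0.00449). Syce3, a synaptonemal complex gene, was listed at 0 in both control embryos and at 4.08 to 16.1 FPKM in the knockout libraries, and it passed in KO embryo (adjusted p = 0.0178). The symbol Tpp1, the 1 gene that fell in KO embryo, names a lysosomal peptidase in the mouse and not the shelterin protein, which is Acd. It was at 3.26 and 10.6 FPKM in control embryos, 0.360 to 0.648 in KO embryo and listed at 0 in KO arrest.

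In KO arrest, H2afx, the histone variant phosphorylated at breaks, stood at 23.1, 72.2 and 60.7 FPKM, above 0.412 and 7.75 in control embryos and 2.55 to 6.55 in KO embryo. Its changes were 3.76 ± 0.82 against control embryo (adjusted p = 0.00849) and 3.29 ± 0.73 against KO embryo (adjusted p = 0.0232). Chek1, a checkpoint kinase, fell from 101 and 108 FPKM to 9.25 to 23.2 (-2.74 ± 0.46, adjusted p = 0.0024), and Mei4, needed for meiotic breaks, from 55.9 and 21.1 to at most 0.647 (-4.91 ± 0.71, adjusted p = 0.0011). Against KO embryo, 3 of 73 rose and 0 fell, a share of 4.11% against 8.58% of all genes (4.93% higher and 3.65% lower): H2afx, the telomerase inhibitor gene Pinx1 (1.57 ± 0.41, adjusted p = 0.04) and the ubiquitin ligase gene Rad18 (2.27 ± 0.63, adjusted p = 0.0493).

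In KD ESC, 5 of 65 tested rose and 2 fell, a share of 10.8%, against 6.23% of all genes (2.59% higher and 3.64% lower). Over all genes, the 764 calls of this comparison became 93 with all 12 libraries in 1 fit and 118 with no variance trend. Rif1, which binds telomeres and sets replication timing, rose from 147 and 150 FPKM to 221 and 200 (0.50 ± 0.08, adjusted p = 0.047). Smg6 rose by 0.66 ± 0.10 (adjusted p = 0.0451) and Hormad2 by 1.84 ± 0.27 (adjusted p = 0.0423). H2afx fell from 795 and 802 FPKM to 479 and 530 (-0.66 ± 0.07, adjusted p = 0.0314), and Brcc3 fell by 0.82 on the log2 scale (adjusted p = 0.05 after rounding, below the threshold). Between control embryo and control ESC, 13 of 77 were higher in the embryo and 27 lower, a share of 51.9% near the 53.4% of all genes (12.6% higher and 40.8% lower). The meiotic genes Sycp3 (5.77 ± 0.74), Mei4 (4.29 ± 0.58) and Prdm9 (3.99 ± 0.55) led those higher, and H2afx (-7.83 ± 0.79), Ruvbl2 (-2.61 ± 0.26) and Mdc1 (-2.63 ± 0.40) those lower.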

How the data were processed

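The authors deposited, per the file headers, 1 StringTie-style gene table a library with FPKM, TPM and mean coverage. The submitters' processing notes list STAR 0.6.0, StringTie, DESeq2 and mouse build mm9, with no role or order. Deposited FPKM values were summed per gene symbol. No counts were used, so counting error is unknown. The authors' coverage divided by FPKM served for relative depth, and the authors' TPM as an alternative. Log2(FPKM + 1) was tested with limma 3.58.1 (R 4.3.3) with a variance trend, on genes at 1 FPKM or more in at least 2 libraries of the fit, with Benjamini-Hochberg adjustment over all genes tested. The 8 embryo libraries shared 1 fit, the 4 stem cell libraries another, and comparisons across them used all 12. The procedure was tested on simulated data, and with 2 or 3 libraries a group a member that was not called is not shown to be unchanged. Gene positions are the files' own. Transcript lengths (GENCODE) and promoters (RefSeq) are on GRCm38, matched by symbol.

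Members called in a knockout or knockdown comparison are given by library in the groups compared. So are the 2 uncalled members with the largest change in each of these comparisons. In addition, 11 members of central role (Tert, Terc, Terf1, Terf2, Tinf2, Atrx, Daxx, Rad50, Brca1, Smc1b and Dmc1) are given by library. Other members called between control embryo and control ESC are named, some by range alone. Of the other pathway genes, the 3 with the smallest p in each direction among those called are named. The members and lists were chosen with earlier results of these data known. Same-numbered replicates did not deviate together (r = -0.109 to 0.0248 across genes), so the numbers were not taken as pairs. Alternatives changed the filter, pseudocount, unit, scaling, variance model, libraries in the fit and each library in turn.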

Additional observations from a re-analysis of the deposited data

Results flagged for a closer look

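Naf1, Nhp2 and Nop10 changed differently in embryos and in stem cells by a test of the difference itself, the KO embryo change minus the KD ESC change on the log2(FPKM + 1) scale. The difference was 4.15 for Naf1, which was higher in KO embryo and lower in KD ESC. It was 2.66 for Nhp2 and 1.81 for Nop10. With median-of-ratios scaling Naf1 alone remained, and the calls depended on single stem cell libraries, as given above. Nop10 was called in neither of the 2 changes taken alone. The embryos and stem cells also differ in strain and in the way Dcaf11 was lost, and these cannot be told apart.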

How the results depend on the processing

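The count of called members depended on the setting. In KO embryo (3 called) it was 1 when libraries were weighted, 8 with a single fit of all 12 libraries, and 1 to 5 with 1 library left out. In KO arrest against control embryo (9) it was 3 unfiltered, 3 with weights, 14 with all 12 libraries and 3 to 14 with 1 library left out: 4 without control embryo 1, 14 without control embryo 2 and 3 without KO arrest 1. With the authors' TPM it was 6, with 4 higher and 2 lower, and the Naf1, Obfc1, Ten1 and Terf2 calls were lost. The members' median log2 change in that comparison was then 0.35. In KO arrest against KO embryo (2) it was 0 with no filter, with a pseudocount of 0.1 and with TPM, 6 with weights, 5 with all 12 libraries, 4 with the 2 groups alone, and 0 to 4 with 1 library left out. In KD ESC (1) it was 0 with no filter, a pseudocount of 0.1, TPM, median-of-ratios scaling, no variance trend, a log2 change of at least 1, or all 12 libraries, 2 with a minimum of 5 FPKM, and 0 to 1 with 1 library left out. Without KD ESC 2 the 1 call was a rise. In control embryo against control ESC (19) leaving out 1 library gave 14 to 23. For the difference between embryo and stem cell effects (3), median-of-ratios scaling gave 1, and leaving out 1 library 0 to 7, both added after seeing the data. Replicate numbers were shared between groups by label only. With a replicate block the counts were 2 in KO embryo, 5 in KO arrest, 1 between the knockout groups, 0 in KD ESC and 17 between control embryo and control ESC.

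Counts over all genes also moved by over 1.5 times. In KO embryo the 750 genes called became 269 with no filter, 82 with weights, 419 with no variance trend, 1709 with all 12 libraries, 228 with the 2 groups alone, 76 with the replicate block, and 87 to 1817 with 1 library left out. In KO arrest 2976 became 1505 with weights, 1965 with the block, and 1983 to 3636 with 1 left out. Between the knockout groups 1012 became 456 with no filter, 2555 with weights, 2081 with all 12, 2030 with the 2 groups alone, 550 with the block, and 285 to 2023 with 1 left out. In KD ESC 764 became 313 with no filter, 431 with TPM, 118 with no trend, 309 with a log2 change of at least 1, 93 with all 12, 26 with the block, and 13 to 686 with 1 left out. Median-of-ratios scaling moved the median change of all genes from 0.31 to -0.05 in KO embryo, 0.45 to 0.02 in KO arrest and -1.01 to -0.42 between control embryo and control ESC. It turned the 573 higher and 177 lower genes of KO embryo into 252 and 461, the 1930 and 1046 of KO arrest into 1322 and 1609, and the 1820 and 5901 between control embryo and control ESC into 2650 and 4373. Quantile normalization gave 483 and 366, 1461 and 1528, and 2964 and 3528. With TPM the 1930 and 1046 of KO arrest became 1294 and 1294.

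Fold changes under the alternatives were tallied for part of the members only. In each comparison these were the called members, the uncalled members with the largest changes and the members of central role. Of these fold changes, 1554 kept direction and side of the threshold, 141 lost the call, 31 gained one and 34 changed sign. All 34 were of members not called, and sign changes of the remaining members were not tallied. In KO embryo Terf2 was at -0.059 with median-of-ratios scaling, -0.13 with quantile normalization, and -0.58 to 0.76 with 1 library left out. Atrx was at 0.11 with the length trend removed, 0.033 with the replicate block, and -0.40 to 0.29 with 1 left out, and Smc1b at -0.87 to 0.012. In KO arrest Terf1 was at -0.025 with median-of-ratios scaling and Atrx at 0.12 with the length trend removed. With 1 left out, Rad50 ran from -1.06 to 0.20, Brca1 from -0.41 to 2.29, Smc1b from -0.74 to 0.14 and Dmc1 from -0.15 to 0.79, the low or high end of each being without control embryo 1 or 2. Between the knockout groups, removing the length trend gave 0.011 for Atrx and 0.0095 for Daxx, weights gave 0.11 for Daxx, and TPM -0.21 for Smc1b. With 1 left out, Daxx ran from -0.50 to 0.49 and Smc1b from -0.0513 to 0.22. In KD ESC Brca2 ran from -0.25 to 2.98 and Terf2 from -0.057 to 0.21, both lowest without control ESC 2. Between control embryo and control ESC, median-of-ratios scaling gave 0.17 for Terf1, 0.49 for Tinf2 and 0.66 for Rad50, and quantile normalization 0.25 for Tinf2, 0.84 for Rad50 and 0.84 for Dmc1. With 1 left out, Rad50 ran from -0.87 to 0.38 and Dmc1 from -0.86 to 0.26. The cause was not tested for any of these.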
